A study of Rattus norvegicus with 43 samples.

Results

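Rat primary hepatocytes (RPH) that had been plated for 4 h were compared with intact liver of the same 3 animals, so that the difference holds everything that happened between the tissue and the attached cell: perfusion, dissociation, the enrichment of hepatocytes and the first hours on the plate. The samples were chosen by their labels as 4 h RPH (8 arrays, 3 rats) or liver (9 arrays, 3 rats), which makes 17 of the 43 arrays and 6 of the 15 rat and group samples of the series. All animals were male Sprague Dawley rats given no test compound, of an age that neither the labels nor the methods state. By the methods they received sodium pentobarbital into the peritoneum and were killed by exsanguination. For the 4 h RPH the cells were isolated by liver perfusion and kept on collagen-coated plates in William's E medium with glutamate, gentamicin, insulin, transferrin, the glucocorticoid dexamethasone and fetal bovine serum, in which they stayed until this time point. The liver samples were a lobe tied off before perfusion, which was therefore neither perfused nor digested, so that its cell types were not separated. How much blood it held is not stated. The cells of each rat taken at 0 h, directly after isolation, and at 24 h and 48 h of culture are drawn on only to place the 4 h values. Each rat gave 1 isolation, so that the 3 rats are the replicates and the arrays of 1 rat and group are technical.

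As background, hepatocytes make up most of the mass of the liver and produce the bulk of the plasma proteins, the bile acids and the urea of the body, and the cytochrome P450 enzymes that oxidize drugs. They share the tissue with sinusoidal endothelial cells, Kupffer cells, which are the resident macrophages, and stellate cells, which store vitamin A. Perfusion with collagenase digests the matrix that holds these cells together, low-speed centrifugation enriches the large hepatocytes, and the cells then attach and flatten on the plate. Isolated hepatocytes are known to lose differentiated functions over days in flat culture.

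Expression was measured as Affymetrix RG230-2 signal, a linear intensity that the authors scaled on every array to the same trimmed mean of 500. Array medians had a middle value of 88.7 in 4 h RPH (range 79.7 to 115) and 127 in liver (range 108 to 145), so that the same scale left a lower middle of the distribution in the cultures. Samples of 1 group lay closer to each other than to the other group, with a mean absolute log2 difference over genes of 0.39 to 0.43 between 4 h RPH samples, 0.31 to 0.37 between livers and 0.73 to 0.90 between the groups. The liver of rat 1 stood apart in 2 respects. Its 3′ to 5′ ratio of the β-actin control, a sign of RNA integrity, was 6.96 against 3.21 and 3.64 in the other livers and 2.85 to 3.12 in 4 h RPH, and its hemoglobin signals were several times lower than those of the other livers. No detection calls were used, and values are printed as signals, or as log2 differences of 4 h RPH minus liver with the standard error (SE) of the limma fit. A gene was called higher or lower at a Benjamini-Hochberg adjusted p under 0.05 over all 10643 tested genes. With 3 animals a side the smallest p of an exact test is 0.10, so that single genes rest on the spread that limma pools across genes.

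Differences between the plated cells and the tissue were widespread. Of 10643 tested genes, 1745 (16.4%) were higher in 4 h RPH than in liver and 3176 (29.8%) were lower, together 46.2%, and 5751 had an unadjusted limma p under 0.05. The median log2 difference of all tested genes was -0.25, and 90% of the genes lay between -1.92 and 1.34. The split depended on the scale: with each array centred on its median log2 signal, which moved the median gene to -0.09, 2146 genes were higher and 2373 lower, so that 47.5% of the called genes were higher in place of 35.5%. Differences of at least 2-fold were called for 851 higher and 1655 lower genes, of at least 8-fold for 74 and 137, and of at least 32-fold for 12 and 11. Without rat 2 the counts were 1208 higher and 2017 lower. The 3 cultures lay outside the range of the 3 livers in 4734 of the 4921 called genes, and in 4872 the difference had the same sign within each of the 3 rats as labelled. These genes were called on the same samples, so that neither count is separate support. Of all tested genes, 2040 (19.2%) were higher and 3848 (36.2%) lower without overlap of the groups. Directly after isolation, by contrast, limma called 0.573% of the genes (61) between 0 h RPH and liver. A gene that was not called was not thereby at its liver level. The marker lists of endothelial, Kupffer and stellate cells, given below, already had negative medians at 0 h. The size of the 4 h difference by signal level is shown in the plot of all tested genes.

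**Figure D1:**
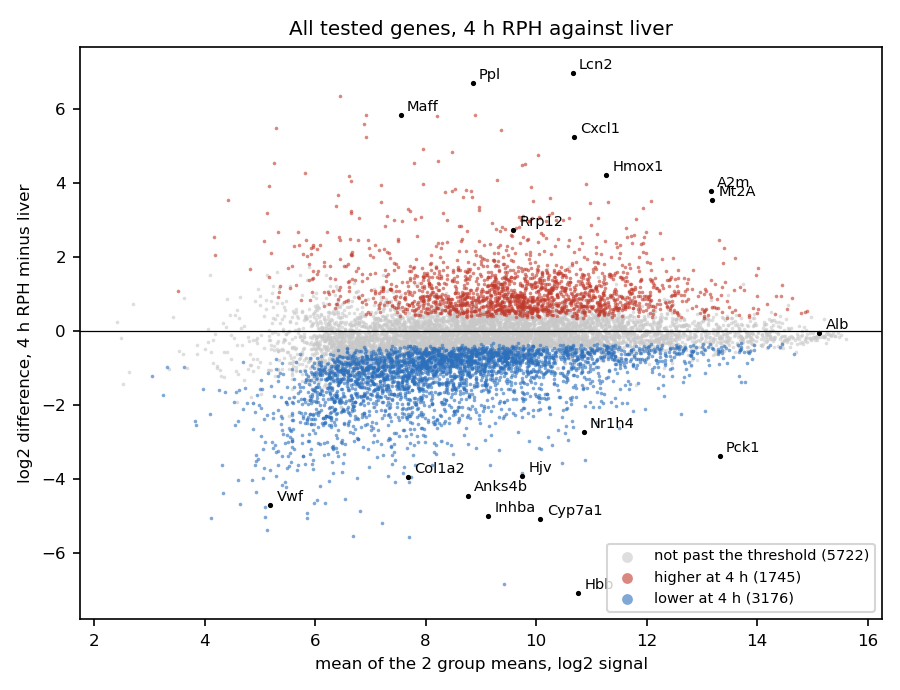
Each point is 1 of 10643 tested genes, with the mean of both group means (log2 signal) on the x axis and the log2 difference of 4 h RPH minus liver on the y axis. Red points were higher (1745) and blue points lower (3176) at an adjusted p under 0.05 (limma), and Lcn2 (6.98) and Hbb (-7.10) mark the ends of the labelled range.

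The classical products of the hepatocyte were close to their liver level after 4 h. Albumin (Alb), the main plasma protein, had signals of 31306, 32862 and 41315 in 4 h RPH, against 36862, 37902 and 34896 in liver, and these ranges overlapped. The ethanol-oxidizing P450 Cyp2e1 had 30788, 23099 and 36499 in 4 h RPH, against 34862, 35454 and 36005 in liver, again with overlap. Cps1, the first enzyme of the urea cycle, had 28784, 25048 and 23754 in 4 h RPH, against 32883, 32564 and 30621 in liver, so that every culture was below every liver by a small step that did not pass the test (log2 difference -0.31 ± 0.16, adjusted p = 0.131, limma). The male-specific P450 Cyp2c11, the steroid-hydroxylating Cyp3a2, the growth factor Igf1 and the nuclear receptor Hnf4a, which drives many hepatocyte genes, had log2 differences of -0.18 ± 0.19, -0.10 ± 0.33, -0.28 ± 0.15 and -0.32 ± 0.19, none past the threshold. Of 21 tested hepatocyte markers 1 was lower, the asialoglycoprotein receptor subunit Asgr1 (-0.47 ± 0.13, adjusted p = 0.0107, limma), and it missed the threshold without rat 1 (adjusted p = 0.158), without rat 2 (0.0682) and with the arrays centred on the median (0.0939). None was higher, and the median of the list was -0.16.

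Wider lists of hepatocyte products followed. Of 55 tested plasma proteins 5 were lower, none was higher, and the median was -0.17 (8 lower with the rat as a block, 2 with the arrays centred and 1 without rat 1). The lower ones included Igfals, the acid-labile subunit that carries IGF1 in plasma (-1.57 ± 0.48, lost in 4 of the leave-one-out fits, highest adjusted p = 0.0718), and Mbl2, a mannose-binding lectin (-0.59 ± 0.14, adjusted p = 0.0707 without rat 3). Of 38 tested genes of P450 drug metabolism 6 were lower (15.8%, beside 29.8% of all genes) and 4 higher (10.5%, beside 16.4%), with a median of -0.27. The count of lower genes was 11 with the rat as a block and 3 with the arrays centred, or without rat 1, 2 or 3. The count of higher genes was 1 without rat 1 or rat 2 and 2 without rat 3. Cyp1a1, the target of the dioxin receptor, stood highest (4.19 ± 1.53, or 2.86 with 32 added), but missed the threshold in 6 of the 9 leave-one-out fits. Another higher gene was Por, the reductase that supplies electrons to the P450 enzymes, with signals of 7756, 9757 and 9454 in 4 h RPH, against 1640.3, 1519 and 1996 in liver, a 5.24-fold higher level with no overlap (log2 2.39 ± 0.22, adjusted p = 3.91e-06). Of 38 tested cytosolic ribosomal proteins 1 was higher (Rpl3, 0.72 ± 0.19, which missed the threshold without rat 1, without rat 2 and with all its probe sets averaged), and the median was 0.05. Many members of these lists sit at the top of the signal range: 19 of the 21 hepatocyte markers, 50 of the 55 plasma proteins and 36 of the 38 ribosomal proteins were among the 5% of genes with the highest liver signal. In that 5% (532 genes, from a signal of 7404) 23.7% were called, against 46.2% of all genes, and the median absolute log2 difference was 0.27, against 0.55 for all genes. Whether the arrays compress differences at that end was not tested.

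The 15 genes that stood highest over liver, by size among genes above the median signal, were led by secreted, inflammatory and membrane proteins. Lipocalin 2 (Lcn2), an acute phase protein that binds bacterial siderophores, had signals of 26384, 11236 and 20211 in 4 h RPH, against 102, 181 and 162 in liver, a 126-fold difference (log2 6.98 ± 0.53, adjusted p = 9.18e-07). Periplakin (Ppl), a linker of keratin filaments at desmosomes, had 3403, 7755 and 3918 in 4 h RPH, against 25.3, 46.7 and 79 in liver (log2 6.69 ± 0.63). Olr1, a scavenger receptor for oxidized LDL, had 1071, 593 and 767 in 4 h RPH, against 9.7, 11 and 8.36 in liver. In none of these did a culture come near a liver, but Olr1 was so dim in liver that its log2 difference of 6.35 ± 0.57 became 4.26 with 32 added to each signal.

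Others of the 15 were regulators of signalling and the cytoskeleton. Rnd1, a small GTPase that lowers actomyosin contractility, had 3858, 4259 and 2819 in 4 h RPH, against 69.1, 59.4 and 61.5 in liver, with a log2 difference of 5.83 ± 0.22 (adjusted p = 4.44e-09). Slc25a29, a mitochondrial carrier of basic amino acids, had 5046, 5799 and 5459.6 in 4 h RPH, against 161, 205 and 246 in liver (4.75 ± 0.19), and Sphk1, the kinase that makes sphingosine 1-phosphate, had 1195, 1672 and 1259 in 4 h RPH, against 27, 53 and 64.8 in liver (4.91 ± 0.37). Within each group these signals spread little beside the gap between the groups. Rgs1, a brake on G protein signalling, varied more, with 868, 1005 and 638 in 4 h RPH, against 36.7, 65.1 and 2.09 in liver, so that its log2 difference of 5.59 ± 0.91 rested partly on 1 very dim liver and was 3.72 with 32 added. The glycosyltransferase B3galnt1 (5.23 ± 0.55, or 3.86 with 32 added) and the fatty acid binding protein Fabp4 (4.59 ± 0.62), known from adipocytes, macrophages and endothelial cells, completed this group.

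Chemokines and other targets of NF-κB, the transcription factor of the inflammatory response, were mostly higher. Of 31 tested members of that list 18 were higher and 6 lower, with a median of 1.21. Cxcl1, a neutrophil attractant, had 8339, 8325 and 14905 in 4 h RPH, against 427, 201 and 221 in liver, and its close relative Cxcl2 had 2043, 2844 and 1919 in 4 h RPH, against 36, 42.9 and 40 in liver, log2 differences of 5.24 ± 0.50 and 5.82 ± 0.37. Ccl3 and Ccl4, which attract monocytes, had log2 differences of 4.84 ± 0.47 and 3.81 ± 0.30. In all 4 chemokines the groups lay far apart. Feedback inhibitors of the pathway were higher too, among them Tnfaip3, a ubiquitin-editing enzyme (2.50 ± 0.21), and Nfkbiz, an atypical IκB (3.05 ± 0.51), as was the adhesion molecule Icam1 (2.00 ± 0.21). The cytokine Il6 was higher (2.49 ± 0.25) and so was Tnf (1.74 ± 0.57), although Tnf was at 1.11 with 32 added and missed the threshold in 6 of the 9 leave-one-out fits (highest adjusted p = 0.113). Il1rn, the secreted antagonist of the interleukin 1 receptor, had 901, 1055 and 809.9 in 4 h RPH, against 21.1, 14.2 and 13.6 in liver (5.84 ± 0.50, or 4.26 with 32 added). The 6 lower members included the T and NK cell chemokine Ccl5 (-2.68 ± 0.57), Cxcl12 (-1.56 ± 0.19, or -2.50 with its probe sets averaged), which had means of 7846 at 0 h and 8136 in liver, and the transcription factor Irf1 (-1.44 ± 0.31).

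The acute phase list, proteins and receptors through which the liver answers to IL-6 and IL-1, had 11 higher and 1 lower of 26 tested members (median 0.46). A2m, the α2-macroglobulin that is the major acute phase protein of the rat, had 37147, 31034 and 34267 in 4 h RPH, against 2250.2, 2053 and 3315 in liver, a 13.7-fold difference (adjusted p = 2.47e-07). Il1r1, the signalling receptor for interleukin 1, had 10799, 10867 and 9229.7 in 4 h RPH, against 1067, 1164 and 1601 in liver (3.03 ± 0.28), and the transcription factors Stat3 (2.44 ± 0.22) and Cebpd (2.77 ± 0.30), which carry these signals, were higher as well. Interferon-responsive genes did not follow: 3 of 29 tested were higher and 13 lower (median -0.56), with the RNA sensor Ifih1 at 2.06 ± 0.37 and the antiviral GTPase Mx1 at -1.68 ± 0.32. The count of lower interferon genes was 7 with the arrays centred, 5 without rat 2 and 6 without rat 3. Markers of immune cells, which make several of these products, are given further on, and their part in the chemokine differences was not tested.

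Stress genes split by pathway. Heme oxygenase 1 (Hmox1), which breaks down heme and is a target of the oxidant sensor NRF2, had 9866, 10289 and 11904 in 4 h RPH, against 515, 734 and 493 in liver, an 18.7-fold difference. Srxn1, sulfiredoxin, had 7234, 8305 and 7127 in 4 h RPH, against 794, 408 and 351 in liver (3.96 ± 0.32), and Slc7a11, the cystine importer, had 1626, 910.3 and 1876 in 4 h RPH, against 139, 65 and 103 in liver (3.85 ± 0.67). In all 3 every culture exceeded every liver, yet the NRF2 list as a whole had a median of 0.11. Of its 28 tested members 7 were higher (25%, beside 16.4% of all genes) and 3 lower (10.7%, beside 29.8%). The lower members were Gstp1, a glutathione transferase of bile duct and other non-hepatocyte cells in rat liver (-3.09 ± 0.32), Abcc4 and Osgin1. Metallothionein Mt2A, which binds zinc and copper and answers to metals and glucocorticoids, had 31639, 28931 and 34909.5 in 4 h RPH, against 1446, 2823 and 5043 in liver (3.53 ± 0.58). Of the list of the glucocorticoid receptor and its targets, of interest because the medium held dexamethasone, 8 of 20 tested members were higher and 4 lower. These shares of 40% and 20% stood beside 16.4% and 29.8% of all genes. Fkbp5, a co-chaperone of that receptor, was at 3.15 ± 0.20, whereas Pck1 (-3.40 ± 0.30) and Angptl4 (-2.64 ± 0.34), an inhibitor of lipoprotein lipase, were among the 4.

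Another list held tRNA synthetases and targets of ATF4, the transcription factor of the integrated stress response. Of its 37 tested members 21 were higher and 1 lower (median 0.78). Slc7a1, the importer of basic amino acids, had 1861, 1504 and 2005 in 4 h RPH, against 479, 155 and 214 in liver (2.82 ± 0.53), and the asparaginyl-tRNA synthetase Nars1 had 8071, 7561 and 8096 in 4 h RPH, against 2035, 1976 and 2517 in liver (1.87 ± 0.14). Atf4 itself was at 1.25 ± 0.26. The chaperones of the cytosol and mitochondria had 15 higher and none lower of 30, 7 of them subunits of the ring-shaped folding machine CCT. The largest difference was that of Hspb8, a small heat shock protein that works with Bag3 (2.12 ± 0.13). That count was 3 without rat 2 and 9 without the liver of rat 2. The inducible heat shock protein Hspa1a had 510.3, 445 and 519.9 in 4 h RPH, against 228, 170.3 and 119.7 in liver, and a mean of 1100.3 at 0 h. Its difference from liver (1.56 ± 0.56, adjusted p = 0.0355) missed the threshold in 7 of the 9 leave-one-out fits. Chaperones of the endoplasmic reticulum had 4 higher of 26 tested (7 with the arrays centred). That was 15.4%, beside 16.4% of all genes, and the list median was 0.05. Among the 4 were Herpud1 (1.12 ± 0.22) and Edem1 (1.70 ± 0.27), both of the pathway that removes misfolded proteins.

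Immediate early genes, which cells switch on within minutes of a signal, were mixed at this time. Of 42 tested members 18 were higher than in liver, none was lower and 24 did not pass (median 0.67); 3 were lower with the rat as a block and 6 without rat 1. Maff, a small Maf transcription factor, had 1259, 1963 and 1162 in 4 h RPH, against 17.2, 34.7 and 25.6 in liver, a log2 difference of 5.84 ± 0.39, or 4.51 with 32 added. Gadd45b, a stress sensor of the p38 pathway, had 3665, 5511 and 4074 in 4 h RPH, against 420.0, 117 and 20.7 in liver (5.43 ± 0.72), with a wide spread between livers. Klf6 (3.60 ± 0.33), Egr2 (3.74 ± 0.32) and the small GTPase Rhob (3.32 ± 0.24) followed. The earliest members had other courses. Fos, a subunit of the AP-1 factor, had 121, 109 and 232 in 4 h RPH, against 252, 96.4 and 78 in liver, overlapping ranges (0.23 ± 0.63, adjusted p = 0.785), although its mean was 2107 at 0 h. Egr1 was at 0.67 ± 0.40 from liver, Nr4a1 at -0.73 ± 0.30 and Dusp1 at -0.64 ± 0.26, none past the threshold in the fit of all samples. These 3 depended on the setting: without rat 1 Dusp1 was at -0.95 (adjusted p = 0.00866) and Egr1 at 1.24 (0.0442), without the liver of rat 3 Nr4a1 was at -1.01 (0.0193), and with the rat as a random block Dusp1 and Nr4a1 passed (0.044 and 0.0406). Without rat 3 Egr1 was at 0.06. Atf3, in contrast, had 1159, 3063 and 1051 in 4 h RPH, against 269, 98.3 and 160.0 in liver (3.26 ± 0.54) and a mean of 2982 at 0 h, and the 4 h and 0 h levels did not differ past the threshold (adjusted p = 0.185).

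The bases before the start of these genes were read from RefSeq (build GRCr8), since cAMP and stress signals reach many immediate early genes through the CRE motif TGACGTCA. Among the 250 bases upstream, on either strand, this motif was in 6 of the 31 members with a promoter in the table (19.4%), against 2.9% of 8894 tested genes and 1.7% of all 27457 promoters. Of those 6 members 2 were higher at 4 h, beside 18 of 42 in the whole list. Their matches are shown in capitals, with 70 bases of the strand of each gene around them.
Maff, chr7:112792705-112792774 (+ strand): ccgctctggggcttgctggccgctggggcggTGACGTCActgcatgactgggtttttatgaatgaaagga
Ppp1r15a, chr1:105139624-105139693 (- strand): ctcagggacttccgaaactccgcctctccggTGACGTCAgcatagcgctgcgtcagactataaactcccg
Maff and Ppp1r15a, a phosphatase subunit that ends the integrated stress response (1.03 ± 0.27), thus carry the full palindrome, starting at positions -51 and -66 from the annotated start. The other 4 (Dusp1, Ier2, Jund and Plk2) were not past the threshold at 4 h. A match is a description of the letters, not of a bound site.

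The broadest rise was in the making of ribosomes. Ribosome biogenesis, the transcription of ribosomal RNA and its cleavage, modification and assembly in the nucleolus, takes a large share of the energy of a cell and is geared to growth. Of 104 tested members of this list 89 (85.6%) were higher in 4 h RPH and none was lower, against 16.4% and 29.8% of all genes, and the median was 1.05. Rrp12, needed for the export of both ribosomal subunits, had 1562, 2135 and 2319 in 4 h RPH, against 378, 249.9 and 282 in liver (2.73 ± 0.27, adjusted p = 7.11e-06). Nolc1, a nucleolar phosphoprotein, had 1918, 1864 and 2587 in 4 h RPH, against 393, 301 and 398 in liver (2.54 ± 0.20), and Tsr1, a maturation factor of the small subunit, had 4780.1, 6094 and 5499.8 in 4 h RPH, against 1274, 725 and 764 in liver (2.61 ± 0.22). The groups did not overlap in any of them. Ddx21, an RNA helicase (2.37 ± 0.18), Heatr1 (2.29 ± 0.33) and Polr1b, a large subunit of RNA polymerase I (2.19 ± 0.14), behaved in the same way. The list median was 0.97, 1.20 and 1.04 within rats 1, 2 and 3, and the count of higher members ranged from 73 (without rat 2) to 92 (arrays centred) over the alternatives. The members were not bright, with a median signal of 1122 in 4 h RPH and 526 in liver, while the ribosomal proteins themselves, given above, stayed near the liver level.

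Neighbouring steps of gene expression shifted the same way, less broadly. Translation initiation and elongation factors had 23 higher and none lower of 42 (median 0.60), among them Eif4e, the cap-binding protein (1.74 ± 0.17), and Eif1a (1.78 ± 0.19). Nuclear transport had 18 higher and 1 lower of 37 (median 0.63), with the importins Ipo5 (1.85 ± 0.21) and Ipo7 (1.63 ± 0.20), which also carry ribosomal proteins. Splicing factors and hnRNPs had 22 higher and 3 lower of 50 (median 0.36), with U2af1, which reads the 3′ splice site, at 1.86 ± 0.27. Proteasome subunits had 11 higher and none lower of 33, by at most 1.15 ± 0.14 (Psmd8). This last count was 18 with the arrays centred, 4 without rat 1 or without rat 2, 7 without the culture of rat 2 and 6 without its liver. Myc, a transcription factor that drives ribosome biogenesis in many cells, had 1554, 3348 and 2912 in 4 h RPH, against 966, 1512 and 658 in liver (1.33 ± 0.36, adjusted p = 0.0086), without overlap, and missed the threshold without rat 3 (adjusted p = 0.156).

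The E-box CACGTG, a palindrome that Myc and other basic helix-loop-helix factors bind, was counted in the same 250 bases. It was in 16 of the 94 ribosome biogenesis genes with a promoter in the table (17.0%), against 8.33% of the tested genes and 5.79% of all promoters. The motif was not particular to this list. Its share was 19.4% in immediate early genes, 19.0% in chaperones of the endoplasmic reticulum and 18.4% in translation factors. Other lists had less, such as the conjugating enzymes with 0 of 30. Of the 16 genes 13 were higher at 4 h, beside 89 of 104 in the whole list. The 4 with the largest rise are printed with the E-box in capitals.
Lyar, chr14:76802818-76802887 (- strand): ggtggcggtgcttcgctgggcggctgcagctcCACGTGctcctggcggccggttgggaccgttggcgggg
Ddx18, chr13:35295973-35296042 (- strand): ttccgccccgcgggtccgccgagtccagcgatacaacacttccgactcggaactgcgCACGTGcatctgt
Gnl3, chr16:6219783-6219852 (- strand): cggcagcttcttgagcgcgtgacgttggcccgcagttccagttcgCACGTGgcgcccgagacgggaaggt
Rpf2, chr20:45205984-45206053 (- strand): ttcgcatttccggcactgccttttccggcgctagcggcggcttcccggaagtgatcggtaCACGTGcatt
Ddx18 and Rpf2 have the match at positions -13 and -10 from the annotated start, and their log2 differences were 1.76 ± 0.18 and 1.53 ± 0.23, beside 1.60 ± 0.20 for Gnl3 (nucleostemin) and 1.92 ± 0.21 for Lyar. The genes that rose most, Rrp12, Tsr1 and Nolc1, have no CACGTG in this window.

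**Figure D2:**
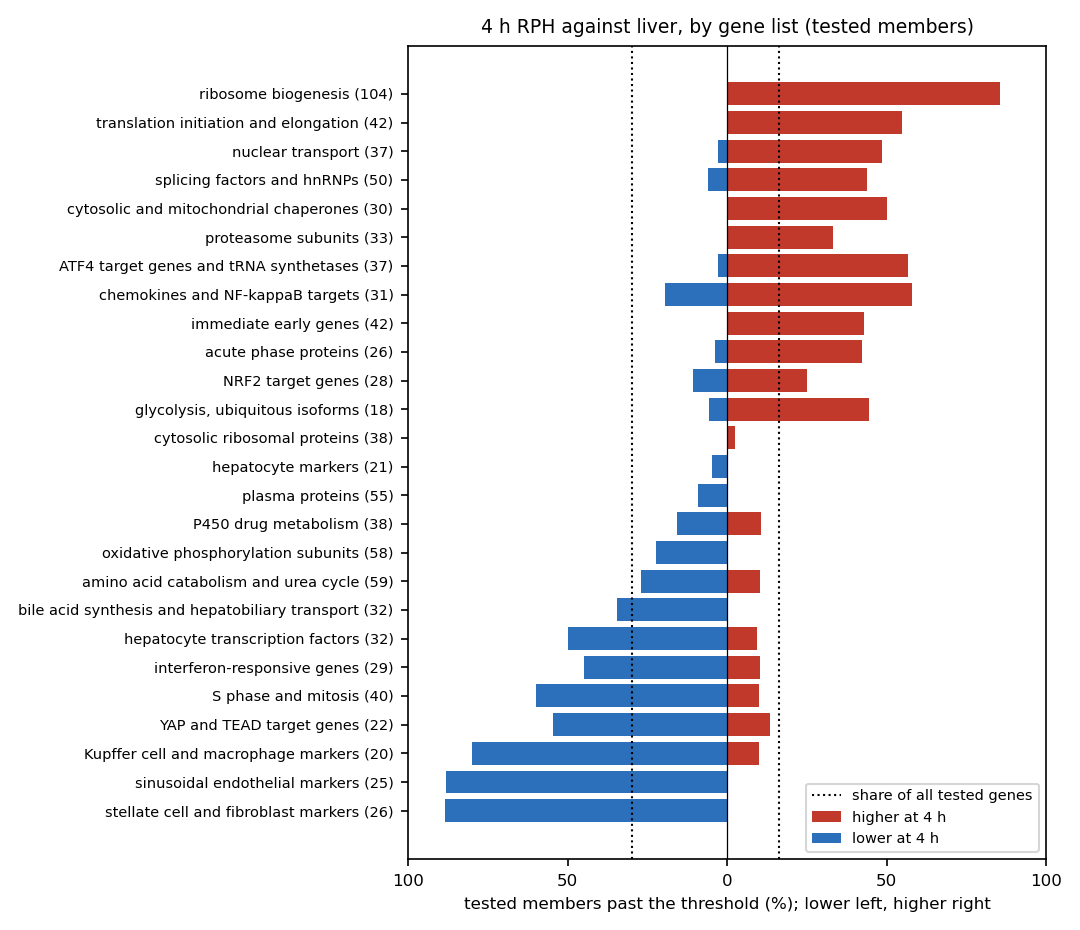
For 26 gene lists, the share of tested members (number in parentheses) that was higher in 4 h RPH than in liver is drawn to the right and the share that was lower to the left, in percent. The dotted lines give the shares of all tested genes, 16.4% higher and 29.8% lower; ribosome biogenesis reaches 85.6% on the right, and the stellate cell list 88.5% on the left.

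Beneath the steady secretory genes, the transcription factors of the hepatocyte were lower. Of 32 tested members of that list 16 were lower and 3 higher (median -0.76), and the count of lower members was 10 without rat 1. Nr1h4, the bile acid receptor FXR, had 538, 579.9 and 1202 in 4 h RPH, against 4399.7, 4057 and 6132 in liver (-2.73 ± 0.28), and Nr1i3, the xenobiotic receptor CAR, had 121, 172 and 83.3 in 4 h RPH, against 612, 706 and 670.2 in liver (-2.46 ± 0.25). Foxa2 (-2.36 ± 0.36) and Gata4 (-2.27 ± 0.40), pioneer factors of the liver lineage, were lower without overlap as well. Onecut1, also called HNF6, had 239, 307 and 510.1 in 4 h RPH, against 782, 5013 and 4755 in liver: the livers themselves differed several-fold, the liver of rat 1 was far below the other 2, and the call (-2.99 ± 0.99, adjusted p = 0.0254) was lost in 7 of the 9 leave-one-out fits. On the other side, Foxa3 was at 1.99 ± 0.22 and the fatty acid receptor Ppara at 2.45 ± 0.59, read by a probe set that was dim in liver (mean 53).

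Bile acid synthesis and hepatobiliary transport had 11 lower (34.4%, beside 29.8% of all genes) and none higher of 32 tested members (median -0.45). Cyp7a1, the rate-limiting enzyme of bile acid synthesis, had 237, 113 and 239 in 4 h RPH, against 18974, 3055 and 4309.8 in liver, a 33.9-fold lower level (-5.09 ± 0.67). Its livers differed several-fold with rat 1 on top, and every culture was far below the lowest of them. Nr0b2, or SHP, the repressor that FXR induces, had 429, 381 and 633 in 4 h RPH, against 4838, 1362 and 1354 in liver (-2.14 ± 0.55), and its difference without rat 1 was -1.47 (adjusted p = 0.054). Abcc6 (-1.92 ± 0.19), an exporter mutated in pseudoxanthoma elasticum, and Baat (-1.40 ± 0.22), which conjugates bile acids to taurine and glycine, were lower, whereas the bile acid importer Slc10a1 was at -0.17 ± 0.23 and did not pass.

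Single hepatocyte genes fell as steeply. Inhba, the βA subunit of activins and inhibins, had 79.3, 104 and 116 in 4 h RPH, against 3542, 2782 and 3295 in liver (-5.02 ± 0.28, adjusted p = 8.73e-08). Anks4b, a scaffold protein of brush borders and a target of HNF4A in mouse liver, had 118, 87.6 and 77.2 in 4 h RPH, against 2475, 1544 and 2224 in liver (-4.46 ± 0.24). Hjv, hemojuvelin, the BMP co-receptor through which hepatocytes sense iron, had 225, 295 and 159.6 in 4 h RPH, against 3762, 2866 and 3477 in liver (-3.93 ± 0.27). Each group was tight in all 3 genes. Of 22 tested genes of iron handling and metallothioneins 7 were lower (31.8%, beside 29.8% of all genes) and 6 higher (2 without rat 1). The lower ones included the inhibitor of BMP signalling Smad7 (-2.26 ± 0.26) and Bmp6 (-1.51 ± 0.30), a ligand made by sinusoidal endothelial cells. The 0 h means of Inhba (3158), Anks4b (2373), Hjv (4304) and Cyp7a1 (9333) stood beside liver means of 3191, 2041, 3347 and 6298.

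In metabolism single regulated genes gave the large differences. Pck1, the gluconeogenic enzyme that insulin represses, had 2001, 5682 and 2781 in 4 h RPH, against 36421, 35916 and 28362 in liver (-3.40 ± 0.30). Glycolysis genes of the ubiquitous kind had 8 higher and 1 lower of 18, with Pfkfb3, which makes the activator of phosphofructokinase, at 1118, 919.7 and 936 in 4 h RPH, against 53.4, 77.4 and 59.7 in liver (3.98 ± 0.34) and the glucose transporter Slc2a1 at 2.77 ± 0.22. The count of higher genes was 5 without rat 1, its liver or its culture. Lipid synthesis had 7 higher and 6 lower of 26, shares of 26.9% and 23.1% beside 16.4% and 29.8% of all genes. The count of higher genes was 3 without rat 2 and 4 without rat 1 or its culture, and that of lower genes was 3 without rat 3. Pnpla3, a lipid droplet protein, had 4361, 3574 and 3189.8 in 4 h RPH, against 220.1, 135 and 519.6 in liver (3.89 ± 0.41), while Srebf1, the insulin-driven regulator of this pathway, was at -1.55 ± 0.23. Cholesterol synthesis and uptake had 3 higher (14.3%) and 4 lower (19%) of 21, neither share above that of all genes. The count of higher genes was 1 without rat 3. None was lower without rat 1, and 2 were lower without rat 2 or the liver of rat 3. The epoxidase Sqle of this list had 8552, 6368 and 8438 in 4 h RPH, against 1704, 1126 and 1728 in liver (2.37 ± 0.29). Slc13a5, the citrate importer of the hepatocyte, was at 4.07 ± 0.62.

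Enzymes of the larger pathways differed less. Oxidative phosphorylation had 13 lower (22.4%, beside 29.8% of all genes) and none higher of 58, by no more than 0.65 on the log2 scale. The list median of -0.23 was close to the median gene. The count of lower genes was 3 with the arrays centred, 1 without rat 2 and 3 without rat 1, and 6 to 8 in 4 further leave-one-out fits. Amino acid catabolism and the urea cycle had 16 lower (27.1%, beside 29.8% of all genes) and 6 higher of 59 (median -0.31). The count of lower genes fell to 6 with the arrays centred and to 3 without rat 1, 10 without rat 2 and 9 without rat 3. Asl, the argininosuccinate lyase, was a higher one (1.09 ± 0.22). Fatty acid oxidation and ketogenesis had 6 lower (17.6%, beside 29.8% of all genes) and 2 higher (5.88%, beside 16.4%) of 34. The count of lower genes was 11 with the rat as a block, 3 with the arrays centred, 2 without rat 1, 3 without rat 2 and 13 without the culture of rat 3. Conjugating enzymes had 11 lower and 1 higher of 37, a share of lower genes of 29.7% beside 29.8% of all genes (6 lower with the arrays centred, 5 without rat 1, 7 without rat 3). The higher one was the glutathione transferase Gstm3 (3.62 ± 0.33), and the lower ones included Fmo4 (-2.38 ± 0.22) and the epoxide hydrolase Ephx2 (-2.08 ± 0.21).

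Genes of the cytoskeleton went both ways. Of 43 tested members 11 were higher (25.6%, beside 16.4% of all genes) and 13 lower (30.2%, beside 29.8%), with a median of 0.15. Keratins 8 and 18, the intermediate filaments of the hepatocyte, were higher (Krt8 2.46 ± 0.18, Krt18 1.98 ± 0.17), as were the tubulin Tubb6 with 5018, 3471 and 4433 in 4 h RPH, against 209, 183 and 164 in liver (4.53 ± 0.24) and the cytoplasmic actin Actg1 (0.95 ± 0.18). The lower members were led by smooth muscle genes: Myl9, a myosin light chain, had 95.2, 65.1 and 126 in 4 h RPH, against 583, 1186 and 1158 in liver (-3.34 ± 0.39), Tagln was at -4.38 ± 0.41 (-1.78 with 32 added) and Tpm2 at -4.69 ± 0.52 (-2.28 with 32 added), both near the bottom of the scale in the cultures. Integrins and focal adhesion proteins, through which cells grip the collagen, had 7 higher and 9 lower of 36. These shares of 19.4% and 25% stood beside 16.4% and 29.8% of all genes. The focal adhesion proteins Tes (2.97 ± 0.20) and Pdlim1 (2.53 ± 0.21) and the collagen receptor chain Itgb1 (0.72 ± 0.14) were higher, and Itgb3 (-2.43 ± 0.54), the β3 chain of platelets and endothelium, was lower. Targets of YAP and TEAD, which answer to stretching and stiffness, had 12 lower and 3 higher of 22 (median -0.97). Ccn2 (CTGF), one of the best known of them, had 1819.8, 3907 and 2853 in 4 h RPH, against 546, 545 and 279.5 in liver (2.64 ± 0.48), while Ankrd1 was at -2.67 ± 0.67 (-1.05 with 32 added, adjusted p = 0.0932 without rat 2). Several of the lower targets, such as Axl and Igfbp3, are also made by stellate, endothelial or Kupffer cells.

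Genes of S phase and mitosis were lower in 24 and higher in 4 of 40 tested members (median -0.93), the count of lower members was 14 without rat 2, and that of higher members was 1 without rat 1, 2 or 3. They were dim throughout, with a summed signal over the list of 7028 to 8212 in 4 h RPH and 9527 to 10466 in liver. The proliferation marker Mki67 had 40.2, 35.6 and 25.1 in 4 h RPH, against 231, 147 and 126 in liver (-2.30 ± 0.42), and the mitotic kinase Plk1 had 29.6, 20 and 17.3 in 4 h RPH, against 148, 132 and 59.4 in liver (-2.28 ± 0.44, or -1.35 with 32 added). In G1 control and p53 targets, 6 were higher and 12 lower of 28. Ccnd1, cyclin D1, had 1466, 895 and 1184 in 4 h RPH, against 2834, 2009 and 2057 in liver (-0.97 ± 0.25), and missed the threshold without rat 2 (adjusted p = 0.0799). The p53 target Ccng1 had 6558, 7689.9 and 5899 in 4 h RPH, against 553, 646 and 637 in liver (3.45 ± 0.16), one of the tightest large rises, and Tp53inp1, a p53-induced nuclear protein, was at 2.37 ± 0.34. The retinoblastoma gene Rb1 (-2.33 ± 0.23) was lower. Whether the S phase transcripts of the tissue came from hepatocytes or from other dividing cells cannot be told apart here.

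Mitotic promoters are known for CCAAT boxes, which the factor NF-Y binds. The letters CCAAT, on either strand, were in 22 of the 35 S phase and mitosis genes with a promoter in the table (62.9%), against 36.0% of the tested genes and 34.3% of all promoters. They were not particular to this list. The share was 90.5% in chaperones of the endoplasmic reticulum and 76.5% in cholesterol synthesis and uptake. Other lists had less, such as the cytosolic ribosomal proteins with 20.6%. Of the 22 genes 14 were lower at 4 h, beside 24 of 40 in the whole list. The 3 lower ones with the largest fall are printed with the match nearest the start in capitals (ATTGG is CCAAT on the other strand).
Cdc20, chr5:137255804-137255873 (- strand): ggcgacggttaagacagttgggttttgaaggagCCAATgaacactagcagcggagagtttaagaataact
Mki67, chr1:199952651-199952720 (- strand): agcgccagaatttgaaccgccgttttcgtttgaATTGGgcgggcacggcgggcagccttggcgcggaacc
Plk1, chr1:186147587-186147656 (+ strand): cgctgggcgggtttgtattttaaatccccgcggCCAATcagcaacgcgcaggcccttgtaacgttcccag
Mki67 has 4 matches in its window and Cdc20 has 2. As above, the letters alone do not show that a factor was bound.

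Markers of endothelial, stellate, Kupffer and blood cells were mostly lower, and the few bile duct markers tested had mixed calls. Fewer cells of a type and less RNA per cell cannot be told apart in these bulk samples, here and in every result above that such cells share. Of 25 tested sinusoidal endothelial markers 22 were lower and none higher (median -1.72, and -0.62 for 0 h RPH minus liver). Their summed signal was 5828 to 9323 in 4 h RPH, 13527 to 20558 at 0 h and 22766 to 28401 in liver. Kdr, the VEGF receptor, had 388, 292 and 684 in 4 h RPH, against 3788, 3772 and 3371 in liver (-3.09 ± 0.48), and the hyaluronan receptor Stab2 had 535, 245 and 595 in 4 h RPH, against 2063, 1826 and 2110.1 in liver (-2.22 ± 0.46). These 2 were lower but still bright in the cultures, whereas Vwf, the von Willebrand factor, had 10.9, 7.72 and 4.31 in 4 h RPH, against 126, 309 and 167 in liver (-4.71 ± 0.54, or -2.56 with 32 added), at the bottom of the scale.

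Stellate cell and fibroblast markers were lower in 23 and higher in none of 26 tested (median -2.30, and -1.06 for 0 h RPH minus liver). Their summed signal was 3066 to 6299 in 4 h RPH, 7758 to 14887 at 0 h and 17718 to 32803 in liver. Col1a2, a chain of collagen I, had 105, 13.8 and 95.1 in 4 h RPH, against 501, 1317 and 802 in liver (-3.97 ± 0.63), Col1a1, the other chain, was at -2.28 ± 0.44, and the PDGF receptor Pdgfra had 72.6, 47.4 and 37.7 in 4 h RPH, against 752, 946 and 891 in liver (-4.08 ± 0.69). The guanylate cyclase subunit Gucy1a1 (-4.87 ± 0.42, or -3.53 with 32 added), a vascular and stellate cell gene, the neuropilin Nrp1 (-3.95 ± 0.33) and Aldh1a3 (-4.09 ± 0.35), an enzyme of retinoic acid synthesis, stood among the 15 largest falls, as did the small heat shock protein Hspb7 (-3.94 ± 0.53, or -2.28 with its probe sets averaged), known from heart and muscle.

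Kupffer cell and macrophage markers were lower in 16 and higher in 2 of 20 tested (median -1.40, and -0.77 for 0 h RPH minus liver). Clec4f, a lectin particular to Kupffer cells in rodents, had 1501, 1168 and 1394 in 4 h RPH, against 5172, 6223 and 4181 in liver (-1.93 ± 0.19), so that part of its tissue signal was still present on the plate. Cd68 had 651, 676 and 908 in 4 h RPH, against 1019, 1835 and 1468 in liver (-0.93 ± 0.23), and missed the threshold without rat 2 (adjusted p = 0.094). The 2 higher members were Hmox1, given above, which is no macrophage marker alone, and the endotoxin co-receptor Cd14 (0.82 ± 0.32), which lost its call in several leave-one-out fits (highest adjusted p over the alternatives 0.266). MHC class II genes, of macrophages, dendritic and B cells, had 6 lower of 8 (RT1-Ba -1.93 ± 0.24), and lymphocyte and NK cell markers 8 lower of 11 (4 without rat 2), with the granule protease Gzma at -2.67 ± 0.31. Only these 11 of the 24 lymphocyte markers on the array passed the filter on low signals, 3 of 9 for neutrophils and 7 of 11 for erythroid genes, and a marker could pass through liver alone, so that these counts describe the tested genes and no more. Of the 3 neutrophil markers S100a8 (-3.27 ± 0.65, or -1.79 with 32 added) and S100a9 (-3.34 ± 0.46, or -2.11) were lower, and the other, Lcn2, was the higher gene described first.

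Red blood cell genes headed the list of the 15 falls. The β-globin gene Hbb had 99.2, 101 and 329 in 4 h RPH, against 5219, 41369 and 38946 in liver (-7.10 ± 1.05), the α-globin gene Hba-a3 had 28.7, 83.6 and 107 in 4 h RPH, against 2114, 12672 and 14459.5 in liver (-6.84 ± 0.77), and Alas2, the first enzyme of heme synthesis in red cells, had 35.7, 18.2 and 42.7 in 4 h RPH, against 240.4, 2532 and 4869 in liver (-5.57 ± 0.96). In all 3 the liver of rat 1 was several times below the other livers, yet above every culture. Globin probe sets cannot separate near-identical gene copies, so that each stands for its family. Alox15, the lipoxygenase of reticulocytes (-5.20 ± 1.00), and the phosphatase Cdc25b (-5.56 ± 0.87) shared this order of the livers. Of 7 tested erythroid genes 6 were lower, and the means of Hbb (284) and Alas2 (44.6) were already low at 0 h. Of 7 tested bile duct markers 2 were lower (28.6%, beside 29.8% of all genes), 1 was higher and 4 did not pass. The filter had left these 7 of the 12 duct markers on the array. Their median was -0.66, with -0.29, -1.54 and -0.38 within rats 1, 2 and 3. The duct keratin Krt19 was lower (-1.58 ± 0.50, lost in 5 of the 9 leave-one-out fits), whereas Epcam, an adhesion molecule of ducts and of regenerating hepatocytes, had 2245, 3063 and 1798 in 4 h RPH, against 873, 742 and 762 in liver (1.55 ± 0.19). The part of these cell types in the 3176 lower genes was not tested.

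**Figure D3:**
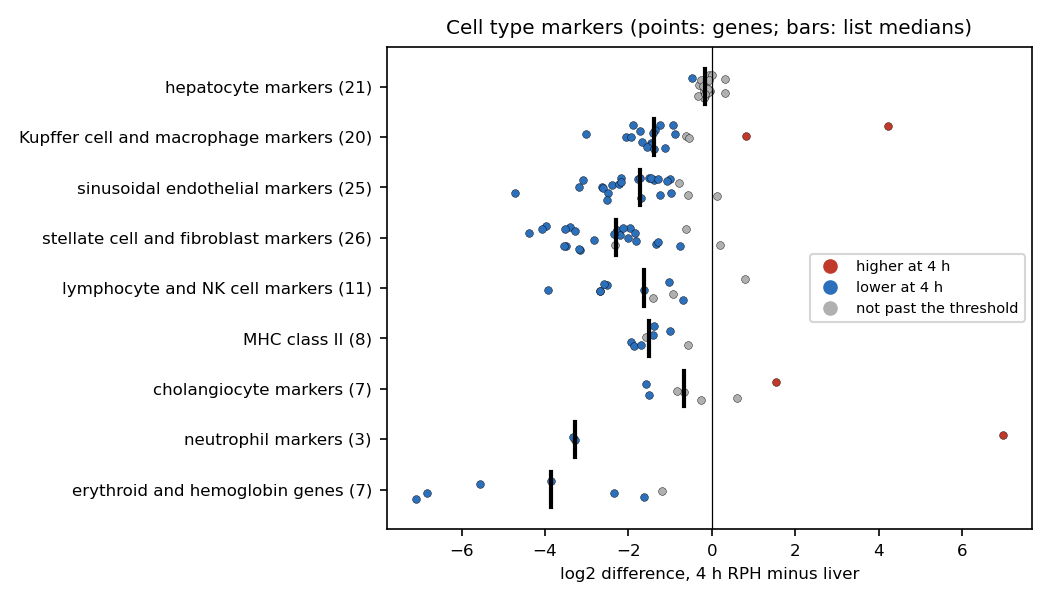
Each point is a marker gene, placed by its log2 difference of 4 h RPH minus liver, in 9 lists of cell type markers (number tested in parentheses), and the bars are the list medians. Hepatocyte markers lie around -0.16, the endothelial, Kupffer and stellate lists around -1.72, -1.40 and -2.30, and the erythroid genes reach -7.10.

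The values per rat of 18 genes named above are drawn together, to show how far apart the groups lay beside their spread.

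**Figure D4:**
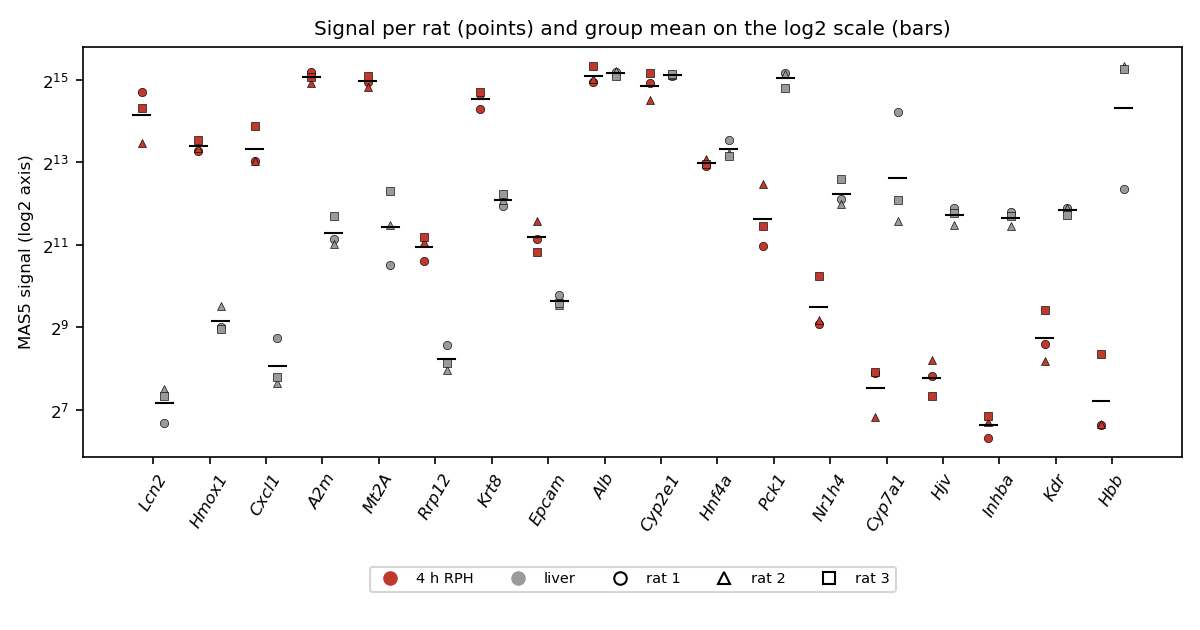
MAS5 signal (log2 axis) of 18 genes in the 3 rats (circle, triangle, square), 4 h RPH in red on the left of each pair and liver in grey on the right, with bars at the group means on the log2 scale. The groups overlap for Alb and Cyp2e1, the cultures lie above the livers for Lcn2 to Epcam, and the livers lie above the cultures for Hnf4a and for Pck1 to Hbb.

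The neighbouring times place the 4 h state. These comparisons share the 4 h samples, so that their values are given side by side and not as support for each other. Against the cells as isolated at 0 h, 1733 genes (16.3%) were higher at 4 h and 2411 (22.7%) lower, and from 4 h to 24 h 2801 genes (26.3%) were higher and 1441 (13.5%) lower. Leaving out a rat lowered these counts, to 1410 to 1491 genes lower at 4 h than at 0 h, and without rat 3 to 1616 higher and 872 lower from 4 h to 24 h, whereas centring the arrays gave 2196 lower genes from 4 h to 24 h. In the fit of all rats, peaks were counted among genes above the median signal at 4 h with every culture above every liver. Of the 1745 genes called higher than liver, 466 met this rule and were also above 0 h at 4 h and below the 4 h level at 24 h. Each condition uses the same 4 h samples, so that a high 4 h value favours all of them. Hmox1 was one of the 466 genes, with means of 425 at 0 h, 10651 at 4 h and 920.2 at 24 h. Cxcl2 had 171, 2234 and 269.5 at these times, Ccl3 169, 1907 and 72.9, Pfkfb3 41.2, 987 and 223, and Olr1 7.1, 787 and 80.3. Their liver means were 571 for Hmox1, 39.5 for Cxcl2, 66.7 for Ccl3, 62.7 for Pfkfb3 and 9.61 for Olr1, so that Cxcl2, Pfkfb3 and Olr1 were still well above liver at 24 h.

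Other genes that rose had no such fall by 24 h. Lcn2 had a mean of 30425 and A2m of 35492 at that time, and Rnd1 of 4230.2, all near or above their 4 h means of 18162, 34057 and 3591. Ribosome biogenesis lay between: 87 of 104 members were higher at 4 h than at 0 h, 48 were lower at 24 h than at 4 h, and the list medians relative to liver were -0.01 at 0 h, 1.05 at 4 h and 0.70 at 24 h. Of the genes that fell, Hjv had returned to a mean of 2901 at 24 h, against 3347 in liver, and Inhba, Anks4b and Cyp7a1 in part, to 858, 805 and 827. Pck1 had a mean of 189.7 at 24 h, below its 4 h mean of 3162.

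The hepatocyte genes that were near the liver level at 4 h were not all so later. Cyp2e1 had a mean of 3266 at 24 h, against 29609 at 4 h, and Cyp2c11 of 9346, against 28508, whereas Alb had 33031 at 24 h and 34899 at 4 h. In the P450 list the median relative to liver was 0.01 at 0 h, -0.27 at 4 h and -1.41 at 24 h, and 22 of 38 members were lower at 24 h than at 4 h. For the plasma proteins these medians were -0.07, -0.17 and -0.81, with 35 of 55 lower at 24 h. For the hepatocyte transcription factors they were 0.12, -0.76 and -0.38, and -0.66 at 48 h, with 7 members higher and 5 lower at 24 h than at 4 h and a median change of 0.02 per gene between these times.

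**Figure D5:**
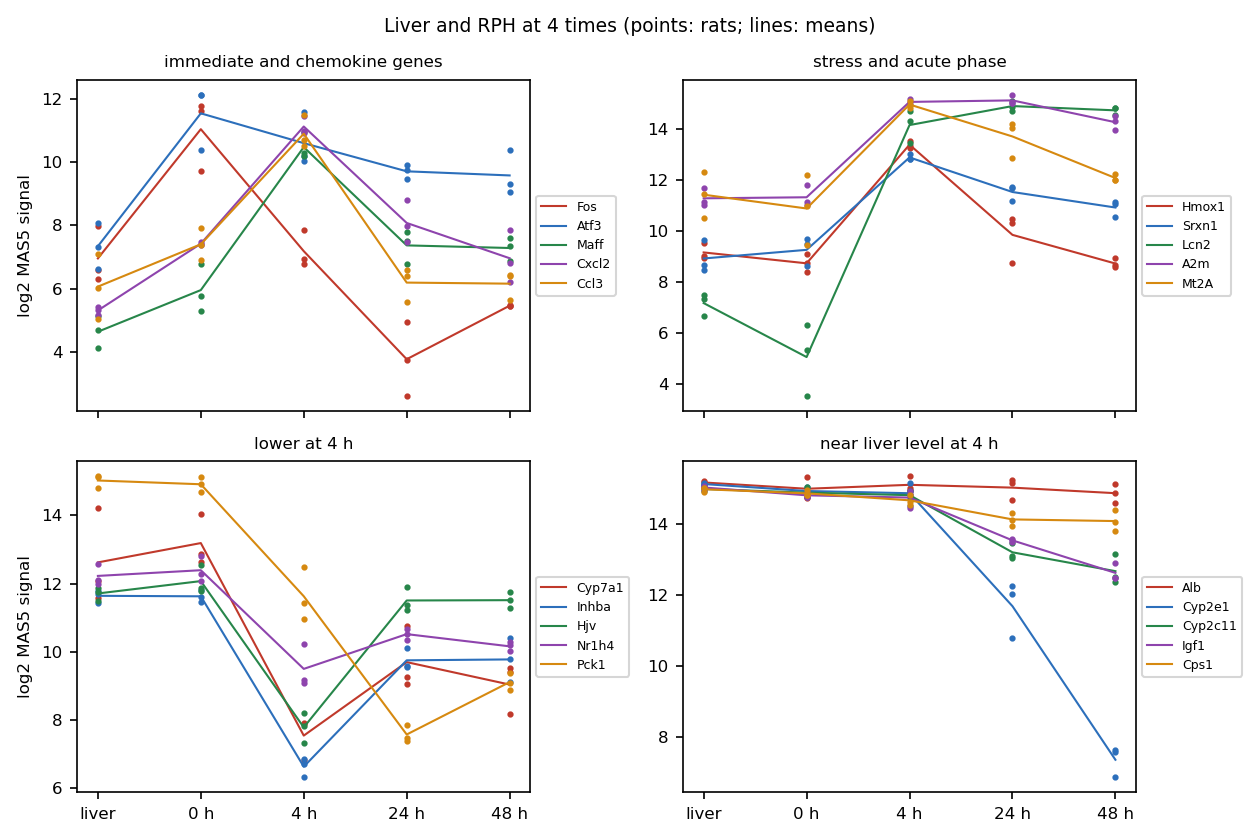
Log2 MAS5 signal of 20 genes in liver and in RPH at 0, 4, 24 and 48 h, as points for the 3 rats and lines through the means. Fos is highest at 0 h, Cxcl2, Ccl3, Maff and Hmox1 at 4 h, Inhba and Hjv are lowest at 4 h, and Alb, Cyp2e1, Cyp2c11, Igf1 and Cps1 lie near their liver level at 4 h.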

How the data were processed

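The authors hybridised RNA of 3 rats to Affymetrix RG230-2 arrays and deposited 1 linear MAS5 signal intensity per probe set and array, scaled to a trimmed mean of 500. The software names in the sources are Command Console and the affy package, with no version. The authors had left out 1 array each at 4 h and 48 h. Of 31099 probe sets, 20826 have 1 gene in the platform annotation, 436 have several, 9780 have none, and 57 are controls.

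Signals were taken as log2, technical arrays of a rat and group were averaged, probe sets above the array median in at least 5 of 43 arrays were kept (18991), and each gene was read by its brightest probe set on average, which left 10643 genes. A model over all 15 samples (5 groups, no block) was fitted with limma 3.58.1 in R 4.3.3 (lmFit, eBayes), with Benjamini-Hochberg adjustment. The script was tested on simulated data. The number of arrays and rats limits the precision. Alternatives were other scalings, filters, offsets, probe set rules, thresholds, technical arrays, samples in the fit, the rat as a fixed or random block, limma-trend, the β-actin ratio as a covariate, and leaving out each rat or sample.

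The rat pairs the samples by the labels, since all 5 samples of a number come from 1 animal. Deviations from the group means correlated among cultures of the same rat (median r = 0.42, lowest 0.21, 18 pairs) but hardly between a liver and the cultures of its rat (median r = 0.01, 12 pairs). The liver of rat 3 went best with its own cultures (median r = 0.20), whereas the livers of rats 1 and 2 did not (-0.0036 and -0.06, against 0.20 and 0.09 with the cultures of the other of these 2 rats), so that the signs within rats and the block rest on labels these values do not bear out for rats 1 and 2.

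The 46 gene lists and the genes to describe were chosen with earlier results of these data known. Named were the 15 largest rises and 15 largest falls without overlap and above the median signal of the higher group, up to 4 called members of each list with the largest change, the 10 largest rises that peaked at 4 h, and a set of reference genes. Other genes, such as Foxa2, Gata4, Krt8, Krt18, Stat3 and Ddx21, were named after their values were seen. Promoter windows were the 250 bases before the RefSeq start.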

Additional observations from a re-analysis of the deposited data

How the results depend on the processing

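With the rat as a replicate block, 1972 genes were higher and 3796 lower in 4 h RPH than in liver (5768 in all), and with a random block 1965 and 3769. Leaving out a rat or a sample gave totals of 3225 to 4586, with 1208 to 1630 higher and 2017 to 3071 lower genes, and the lowest totals came without rat 2 (3225). Requiring a 2-fold difference left 2506 genes (851 higher, 1655 lower), and an adjusted p under 0.01 left 2058 lower genes. Quantile normalization gave 2012 higher and 2706 lower genes with a median gene of -0.13, and the β-actin ratio as a covariate 1528 and 2610. For 4 h against 0 h RPH, leaving out a rat gave totals of 2633 to 2703, with 1179 to 1241 higher and 1410 to 1491 lower genes. For 24 h against 4 h RPH it gave 2488 to 3077, with 1616 to 2036 higher and 872 to 1043 lower, and centring the arrays gave 2196 lower genes. Values of 3 genes that were not called changed sign. The log2 difference of Alb was 0.019 with quantile normalization, 0.0917 with the arrays centred, and -0.221 to 0.0189 over the fits without 1 rat or sample. That of Cyp3a2 was 0.0588 with the arrays centred, 0.0742 with the covariate, and -0.194 to 0.0217 over those fits. That of Fos was -0.441 to 0.873 over those fits. The cause of these shifts was not tested. Over all alternatives, 4863 values of named genes kept direction and side of the threshold, 241 lost their call and 22 gained one. The depth of an array has no count, so that dim genes are limited by signal over background: 258 called genes had a mean signal under 32 in 1 group.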

Other observations

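Genes that mark the ends of the liver lobule did not move together between 4 h RPH and liver (values are log2 differences of 4 h RPH minus liver). Among 20 tested genes of the pericentral zone, which surrounds the draining vein, 4 were higher (20%, beside 16.4% of all genes) and 4 lower (20%, beside 29.8%). The higher ones were Gstm3, the neutral amino acid carrier Slc1a4 (2.83), the cytokine Lect2 (0.95) and glutamine synthetase, Glul (0.92), whereas the Wnt targets Axin2 and Lgr5 were lower (-2.32 and -2.29). Axin2 had an adjusted p of 0.0986 without rat 3, and Lgr5 one of 0.0546 without rat 2 (limma). Lgr5 was dim, and was at -1.09 with 32 added and -1.39 without rat 1. Among 23 tested periportal genes, from the zone where blood enters, 1 was higher (Asl, 4.35%, beside 16.4% of all genes). Another 4 were lower (17.4%, beside 29.8%), Pck1 by far the most. The count of lower genes was 10 with the rat as a block, 2 with the arrays centred, and 2 without rat 1 or without the liver of rat 3. Arg1 (0.09), Otc (-0.01) and Ass1 (-0.11), enzymes of the urea cycle, did not pass.

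Of 18 tested clock genes 4 were higher (22.2%, beside 16.4% of all genes) and 3 lower (16.7%, beside 29.8%). There was 1 higher without rat 2, 2 higher and 1 lower without rat 1, and 1 lower without the culture of rat 2. Npas2 (-2.10) and Bmal1 (-1.38), activators of the clock, were lower, and Per3 (2.42) and Cipc (2.39), repressors, were higher, although Bmal1 missed the threshold in 3 of the 9 leave-one-out fits (-0.82 without rat 2) and Per3 in 2. Per3 was dim in liver and was at 1.31 with 32 added, 0.66 with no filter (adjusted p = 0.243) and 1.17 with the first technical array (adjusted p = 0.30). No label or method states the hour of sampling, so that time of day and culture cannot be told apart. In the growth hormone and IGF axis 5 of 19 tested genes were lower (26.3%, beside 29.8% of all genes) and 2 higher. Stat5a (-1.09), a mediator of growth hormone, was lower and the growth hormone receptor Ghr was at -0.21 and did not pass. The kinase Jak2, which the receptor activates, was at 1.07 and passed. The count of lower genes was 3 without rat 1, rat 2 or rat 3. In iron handling, the transferrin receptor Tfrc was at 1.41 (adjusted p over the threshold in 4 of the 9 leave-one-out fits), while the hormone Hamp was at 0.70 and did not pass.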
